A study of Mus musculus with 2 samples.

Results

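Plasmacytoid dendritic cells (pDCs) were examined in single-cell RNA sequencing of CD45+ leukocytes from mouse intrahepatic cholangiocarcinoma (iCCA), a bile duct cancer arising within the liver. They were chosen by the barcode rule that follows, as the barcodes (single cells) with at least 3 unique molecular identifiers (UMIs, counted transcripts) summed over Siglech, Ccr9, Cox6a2 and Klk1, of which at least 1 came from Siglech. Barcodes with more than 4 UMIs of C1qa, C1qb and C1qc, more than 2 of Cd79a and Cd3e, or more than 1 of Csf3r and Cxcr2 were left out, to limit macrophages, B and T cells and neutrophils. The rule found 160 of 21211 kept barcodes, 43 of 10770 in the MOCK library and 117 of 10441 in the NAV library. Since the cells were selected on these UMI counts, the values of the 4 genes and the transcriptome that goes with them are given as descriptions.

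Both groups were C57BL/6 mice given transposon vectors for Myr-AKT, a membrane-bound active AKT kinase, and YAPS127A, a YAP mutant that escapes inactivation, by hydrodynamic injection, which brings plasmids mainly into hepatocytes. From day 7 the NAV group received NAV2729, a small molecule that blocks ARF6 activation, at 30 mg/kg every second day for a further 7 days, and the MOCK group did not. Perfused livers were digested, and CD45+ cells were sorted and captured on the BD Rhapsody microwell system, 1 pooled library per group. The labels give 6 tumours per group in one place and 3 paired tumours in another, so the number of mice behind a library is uncertain. With 1 library per group there is no replicate error, and no test was made. All intervals are exact 95% intervals that cover counting error only, and a difference between the libraries cannot be told apart from a difference between pools, sorts or captures.

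The libraries held 10863 and 10465 barcodes with 45976676 and 31454031 UMIs. Kept MOCK barcodes were deeper, with a median of 3882 UMIs against 2178 in NAV. The pDCs did not share this gap: their medians were 3401 UMIs (798 to 8168) and 3604 UMIs (591 to 5842), with 1774 and 1734 genes. Their median mitochondrial shares were 4.50% and 4.59%. No pDC had a Scrublet doublet score above 0.25. The libraries shared 5 barcode sequences, none of them among the pDCs.

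pDCs are a dendritic lineage that circulates in blood and settles in lymphoid organs and liver. They sense nucleic acids in endosomes through TLR7 and TLR9 and, when triggered, can release large amounts of type I interferon through IRF7. The E protein TCF4 holds their identity and is opposed by ID2, the inhibitor that conventional dendritic cells (cDCs) use. Resting pDCs carry little MHC class II and present antigen less well than cDCs.

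The rule rests on 4 transcripts of which promoters of 3 could be read. SIGLEC-H is a sialic acid-binding lectin of the pDC surface, CCR9 is the receptor for the gut and thymus chemokine CCL25, and Klk1 encodes a tissue kallikrein, a secreted serine protease whose gene belongs to a family of near-identical copies, so its counts are uncertain. Cox6a2, the remaining rule gene, encodes a cytochrome c oxidase subunit best known from muscle. The 240 bases that end 10 bases before the RefSeq start (GRCm38.p6) are shown for Siglech, Ccr9, Klk1 and Spib. The first 3 are high in pDCs by the choice of cells. Spib, the ETS factor of the lineage, lies outside the rule and is among the 20 genes named below as highest in pDCs. Capitals mark the E-box letters CAGGTG or its reverse complement CACCTG, which E proteins such as TCF4 can bind. Siglech lay at chr7:55767934-55768173 (plus strand), Ccr9 at chr9:123766961-123767200 (plus strand), Klk1 at chr7:44225110-44225349 (plus strand) and Spib at chr7:44532082-44532321 (minus strand).
Siglech: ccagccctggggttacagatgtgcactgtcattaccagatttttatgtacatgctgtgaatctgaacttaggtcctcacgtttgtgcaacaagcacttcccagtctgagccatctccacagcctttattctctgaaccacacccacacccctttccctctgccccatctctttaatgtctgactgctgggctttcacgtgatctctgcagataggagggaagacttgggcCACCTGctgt
Ccr9: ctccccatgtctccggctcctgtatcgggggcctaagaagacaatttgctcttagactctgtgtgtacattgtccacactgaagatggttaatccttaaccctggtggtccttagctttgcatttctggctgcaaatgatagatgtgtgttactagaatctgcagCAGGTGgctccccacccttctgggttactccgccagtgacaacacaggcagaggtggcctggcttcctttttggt
Klk1: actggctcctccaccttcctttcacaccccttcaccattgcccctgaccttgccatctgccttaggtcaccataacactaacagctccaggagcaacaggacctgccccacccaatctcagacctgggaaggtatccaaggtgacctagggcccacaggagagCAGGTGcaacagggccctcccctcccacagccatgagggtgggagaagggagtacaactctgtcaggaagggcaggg
Spib: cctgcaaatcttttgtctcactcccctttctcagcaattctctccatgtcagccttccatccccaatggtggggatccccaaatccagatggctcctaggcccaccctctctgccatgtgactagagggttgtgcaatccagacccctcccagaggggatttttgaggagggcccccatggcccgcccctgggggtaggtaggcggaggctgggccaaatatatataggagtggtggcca
The E-box began at position -20 from the start in Siglech, -85 in Ccr9 and -87 in Klk1, and the Spib window held none. It occurred in all 3 windows of rule genes, in 5 of the 15 matched windows of the 20 genes named below as highest in pDCs, and in at least 1 window of 18.8% of all 27025 genes in the table. These are letter matches, and binding was not measured.

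pDCs were a larger share of the NAV library. They made up 0.399% (0.289 to 0.537) of kept MOCK barcodes and 1.12% (0.928 to 1.34) of kept NAV barcodes, a 2.81-fold difference with a log2 NAV/MOCK ratio of 1.49 (0.97 to 2.03). Requiring a Tcf4 UMI as well, which the rule did not use, left 38 and 112 barcodes and a ratio of 1.60 (1.06 to 2.18). Thinning every barcode to 1000 UMIs left 26 of 9915 and 90 of 9154 barcodes and a ratio of 1.91 (1.26 to 2.60), after 855 MOCK and 1287 NAV barcodes that were too shallow were set aside. The plot of shares by setting shows that the 2 intervals did not meet under any of the settings drawn.

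**Figure D1:**
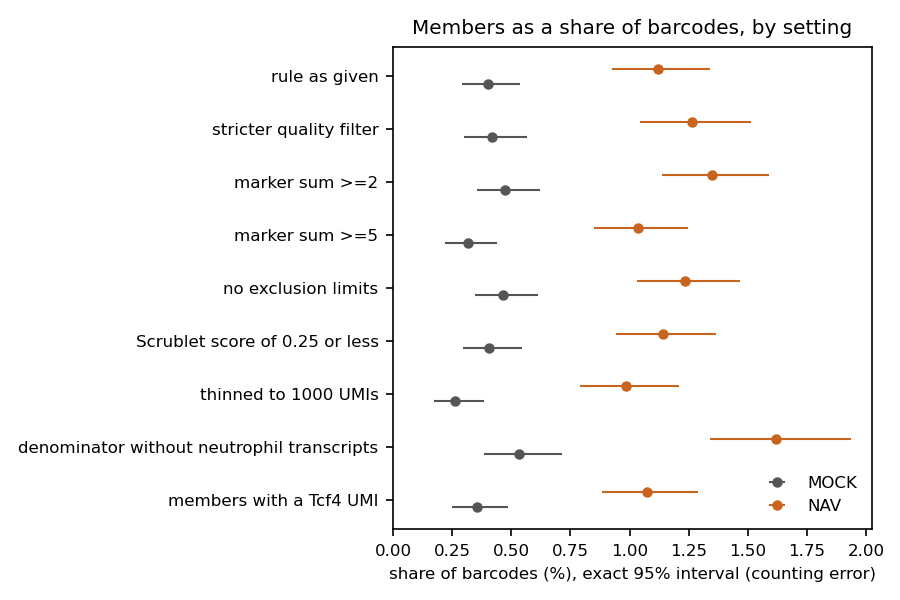
Members of the pDC rule as a percentage of barcodes (horizontal axis) in the MOCK (grey) and NAV (orange) library under the rule and its alternatives, with exact 95% intervals for counting error. Under the rule as given the share was 0.399% in MOCK and 1.12% in NAV, and the NAV point lies to the right in every row.

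The other dendritic gates, rebuilt here from marker UMIs, had smaller log2 ratios. Barcodes with cDC1 markers (Xcr1 and Clec9a, the cross-presenting subset) numbered 49 and 76, with a log2 ratio of 0.68 (0.14 to 1.23). Barcodes with cDC2 markers (Cd209a with Flt3 or Zbtb46) numbered 116 and 142, with a ratio of 0.34 (-0.03 to 0.70), and mature DCs (Ccr7, Fscn1, Ccl22 and Il4i1) numbered 43 and 79, with a ratio of 0.92 (0.37 to 1.49). Set against these 3 gates and the pDCs together, pDCs were 43 of 251 dendritic barcodes in MOCK (17.1%, 12.7 to 22.4) and 117 of 414 in NAV (28.3%, 24.0 to 32.9). The log2 ratio within dendritic cells was 0.72 (0.21 to 1.26), smaller than the 1.49 over all barcodes and still above 0. B gate barcodes (Cd79a and Cd79b) numbered 618 and 651, a ratio of 0.12 (-0.04 to 0.28).

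The rule genes describe the barcodes, and Tcf4 and Bst2, which the rule did not use, serve to check the label. Marker sums ran from 3 to 60 UMIs in MOCK (median 15) and from 3 to 66 in NAV (median 16). Siglech was counted 369 times in MOCK (2304 CPM, the count scaled to the summed UMIs of the pDCs in that library) and 1173 times in NAV (2860 CPM). Ccr9 was present in 32 of 43 and 106 of 117 barcodes, Cox6a2 in 19 and 48, and Klk1 in 16 and 50. Tcf4 was present in 38 of 43 (88.4%) and 112 of 117 (95.7%). At 1000 UMIs per barcode it was present in 68.3% and 80.9% of pDCs, against 21.2% and 18.7% of B gate barcodes. Bst2, an interferon-inducible surface protein that mouse pDCs carry at rest, was present in 26 of 43 (60.5%) and 96 of 117 (82.1%). At 1000 UMIs it was present in 24.4% and 42.6%, against 1.67% and 1.49% of the B gate. Without thinning, Bst2 was in 12.2% and 22.4% of cDC1 gate barcodes, 13.8% and 16.2% of cDC2 and 23.3% and 10.1% of mature DCs. For Tcf4 these shares were 32.7% and 28.9%, 38.8% and 41.5%, and 25.6% and 24.1%.

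Barcodes at the lower edge of the rule looked different from the rest. With a marker sum of 5 or more, Tcf4 was present in 33 of 34 MOCK and 105 of 108 NAV barcodes. With a sum of 3 or 4 it was present in 5 of 9 and 7 of 9, and just outside the rule, at a sum of 2, in 4 of 8 and 17 of 24. MHC class II transcripts (H2-Aa, H2-Ab1, H2-Eb1 and their chaperone Cd74) had a median of 230.5 UMIs per barcode in MOCK and 123 in NAV at a sum of 2. At a sum of 3 or 4 the medians were 97 and 5 UMIs, with highest values of 369 and 204, and at 5 or more they were 5 and 13.5. A further 7 MOCK and 12 NAV barcodes reached the marker sum but went over an exclusion limit.

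MHC class II was held unevenly. In MOCK, 7 of 43 pDCs had 50 or more class II UMIs, and these 7 held 1333 of all 1653 class II UMIs (80.6%). In NAV, 12 of 117 held 1156 of 2589 (44.7%). Of the 7 MOCK barcodes, 5 had a marker sum under 5 and 3 had a Tcf4 UMI, whereas of the 12 NAV barcodes 2 had a marker sum under 5 and 10 had a Tcf4 UMI. The same MOCK barcodes held 35 of 50 UMIs of Id2, the cDC factor that opposes TCF4, and 276 of 391 UMIs of Cst3, the protease inhibitor cystatin C that cDCs express highly. The NAV ones held 11 of 31 Id2 and 190 of 519 Cst3 UMIs. At the other end, 10 MOCK and 16 NAV pDCs had no class II UMI. The main results that these barcodes touch are given below with and without marker sums under 5.

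**Figure D2:**
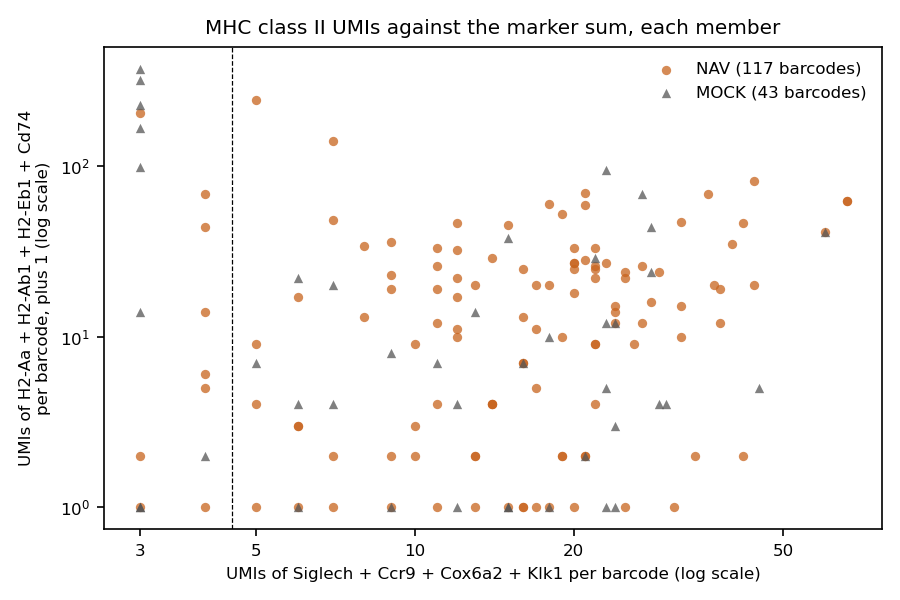
MHC class II UMIs (plus 1, vertical log axis) against the marker sum (horizontal log axis) of each pDC barcode, triangles for MOCK and circles for NAV, with a dashed line between sums 4 and 5. Of the 7 MOCK barcodes with 50 or more class II UMIs, 5 lie left of the line, while most barcodes to its right have under 50.

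Outside the rule genes, 370 of 2374 genes with at least 50 UMIs in the pDCs were 2-fold or more higher than in the other kept barcodes of the same library, in both libraries (15.6%), and 68 were 2-fold or more lower in both (2.86%). Because the rule picks cells whose whole transcriptome goes with the markers, these counts describe the cells. Of 22 marker genes outside the rule, 20 reached 50 UMIs, and 19 of these 20 were 2-fold or more higher in both libraries, with median log2 ratios of 4.51 in MOCK and 4.45 in NAV. Of 13 measured transcription factors listed for the lineage, 7 were 2-fold or more higher in both libraries and 1 was 2-fold or more lower in both. Their median log2 ratios were 1.33 in MOCK and 1.26 in NAV. Tcf4 had log2 ratios of 3.11 and 3.62, the ETS factor Spib 6.16 and 5.60, and the interferon regulatory factor Irf8 2.88 and 3.27. Runx2, known in pDCs for a part in leaving the bone marrow, had 4.24 and 3.80, and Bcl11a, a factor needed for pDC development, had 4.24 and 4.40. Irf7, the factor of interferon production, was low, with 14 UMIs in each library and log2 ratios of 0.49 and 0.46.

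The 20 genes highest in pDCs by the smaller of the 2 ratios were Mn1, Dntt, Paqr5, Pdzd4, Ptprf, Cd300c, Havcr1, Cd209d, Smim5, Lefty1, Atp2a1, Upb1, Atp1b1, Lrp8, Spib, Ly6d, Mycl, Gria3, Pacsin1 and Rpgrip1. Dntt encodes the terminal transferase that adds bases at antigen receptor joints in developing lymphocytes. It was counted 51 times in 21 MOCK pDCs and 175 times in 61 NAV pDCs, with log2 ratios of 9.92 and 8.08. Ptprf, a receptor tyrosine phosphatase, had 58 and 168 UMIs with ratios of 9.06 and 7.61, and Lefty1, a secreted inhibitor of NODAL signals, had 33 and 89 UMIs with ratios of 7.25 and 7.10. Atp1b1, the beta subunit of the sodium pump, was in 32 of 43 and 96 of 117 pDCs, with ratios of 6.91 and 5.91. Lrp8, a lipoprotein receptor for apolipoprotein E and reelin, had ratios of 5.93 and 5.80. These genes were high in both libraries, as the plot of genes outside the rule shows.

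**Figure D3:**
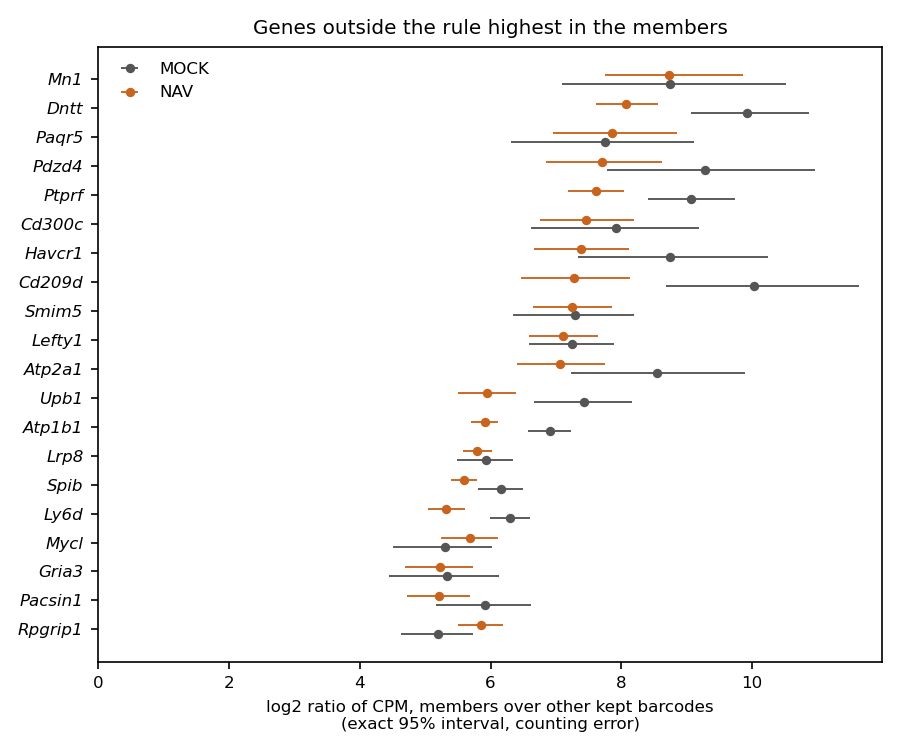
Log2 ratio of CPM in pDCs over other kept barcodes of the same library (horizontal axis) for the 20 genes outside the rule that were highest in both libraries, MOCK in grey and NAV in orange, with exact 95% intervals for counting error. Dntt stands at 9.92 in MOCK and 8.08 in NAV, and Rpgrip1 at the foot of the plot still lies above 5 in both.

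Some lymphocyte transcripts were found in many pDCs. The rule itself caps Cd79a and Cd3e, so low counts of other B and T cell genes are partly set by the choice of cells. Ighm, the immunoglobulin mu chain gene, was present in 38 of 43 and 105 of 117 pDCs, with 140 and 428 UMIs. At 1000 UMIs per barcode its share was 58.5% and 62.6%, against 7.76% and 7.04% in the cDC2 gate. In the B gate it was higher, at 91.3% and 90.6%. The list of 13 B cell genes summed to 153 and 521 UMIs, with Igkc, a light chain gene, at 9 and 37 and Ebf1, an early B cell factor, at 0 and 25. Cd4 was present in 12 and 39 pDCs, and Cd8a in 10 and 27, with 23 and 65 UMIs. At 1000 UMIs the Cd4 shares were 22.0% and 15.7%, against 0.186% and 0.331% in the B gate, and the Cd8a shares 14.6% and 10.4%, against 0.557% and 0%. In the cDC2 gate the Cd4 shares were 0.862% and 0%, and the Cd8a shares were 0% in both libraries. Of the T cell receptor complex, Cd3d had 1 and 0 UMIs and Cd3g 2 and 0. Clec9a, a receptor for dead cells that marks cDC1 and is also known in pDCs, was present in 21 and 57, at a log2 NAV/MOCK ratio of -0.04 (-0.57 to 0.50), while the cDC1 receptor Xcr1 was found in 2 and 1 barcodes.

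Cdh5, the gene for the endothelial adhesion protein VE-cadherin, was found in 22 of 43 (51.2%) and 68 of 117 (58.1%) pDCs. It had 48 and 133 UMIs and stood at log2 ratios of 2.37 and 3.88 over other barcodes. At 1000 UMIs it was present in 22.0% and 26.1% of pDCs, against 0% and 0.331% of the B gate. Of the sinusoidal endothelial markers, Stab2 had no UMI in either library and Clec4g had 1 and 3. Other endothelial genes were counted, Pecam1 with 15 and 59 UMIs and Kdr with 1 and 33. Cdh5 and Pecam1, the 2 measured genes of the endothelial and stromal list, were 2-fold or more higher than in other barcodes in both libraries. The list summed to 65 and 229 UMIs. Hepatocyte and cholangiocyte markers summed to 19 and 25 UMIs, with Alb at 0 in both, and neutrophil markers to 36 and 43. The part of these in the results was not tested.

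No interferon transcript was counted. All 20 genes for type I and type III interferons, among them Ifnb1 and Ifna4, had 0 UMIs in both libraries. With 43 and 117 barcodes this allows a share of cells with a UMI of up to 6.98% and 2.56%, and a level of up to 18.7 and 7.31 CPM for each gene. In the other kept barcodes these genes had 23 UMIs in MOCK and 2 in NAV, of which Ifnb1 had 20 and 1. Gzmb, the granzyme that human pDCs contain, was also at 0 in both.

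Of the sensing genes, Tlr7 and Unc93b1 were counted in both libraries and Tlr9 hardly at all. Tlr7, the endosomal sensor of single-stranded RNA, had 9 UMIs in 7 MOCK pDCs and 50 in 35 NAV pDCs, a log2 NAV/MOCK ratio of 1.12 (0.08 to 2.33). Unc93b1, the chaperone that carries these sensors to endosomes, had 164 and 563 UMIs and was present in 40 of 43 and 115 of 117. Its ratio was 0.42 (0.17 to 0.68). Tlr9, the sensor of DNA, was counted once in MOCK and not in NAV. Over 10 measured genes of the TLR7 and TLR9 pathway the median ratio was 0.29, beside 0.07 over all 2378 genes measured, and 1 passed 2-fold, Tlr7. That count is to be read against 1.93% of all genes measured that were 2-fold or more higher in NAV. At marker sums of 5 or more the median was 0.08, Tlr7 had a ratio of 0.97 (-0.12 to 2.26), and none passed 2-fold.

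Interferon response genes stood at modest levels. Of 36 listed, 8 had at least 50 UMIs, with a median log2 NAV/MOCK ratio of 0.29 and none past 2-fold. The median was 0.33 at marker sums of 5 or more and 0.08 with equal weight per cell. Of the 8, 2 had intervals above 0 and none below. Irf9 was the lowest, with 32 and 63 UMIs and a ratio of -0.38. Stat2, a transcription factor of the interferon pathway, had 23 and 104 UMIs with a ratio of 0.82 (0.16 to 1.54), against -0.40 in the B gate. Bst2 had 49 and 225 UMIs and a ratio of 0.84 (0.39 to 1.32). Oasl2 had 2 and 29 UMIs, and Isg15 had 1 and 5. One NAV barcode alone held all 11 UMIs of Cxcl10, the interferon-induced chemokine, together with 43 UMIs of the interferon response list.

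Over all genes, 46 of 2378 were 2-fold or more higher in NAV pDCs (1.93%) and 71 were 2-fold or more lower (2.99%). Of the genes lower in NAV, 14 have ribosomal protein symbols, and 27 of the 67 that could be measured in B gate barcodes were 2-fold or more lower there too, as were 39 of all 2243 genes measured in both (1.74%). None of the 34 genes higher in NAV that could be measured in the B gate passed 2-fold there. Few genes of any kind did, 14 of all 2243 measured in both (0.624%), so this count says little about the 34. With marker sums of 5 or more, 48 of 2084 genes were higher (2.3%) and 50 lower (2.4%). After the B gate ratio of each gene was subtracted, 73 of 2243 were higher (3.25%) and 48 lower (2.14%). At sums of 5 or more, of the 39 genes of the higher set still measured, 27 stayed past 2-fold, as did 39 of 50 of the lower set.

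The 10 genes highest in NAV by the interval bound nearest to 0 were Atp2b4, Idi1, Csf2rb2, Smchd1, Tmem258, H2-T23, Ahnak, Anxa5, Hivep3 and Gpr18. Csf2rb2 encodes the beta chain that the mouse IL-3 receptor uses. It had 89 UMIs in MOCK (556 CPM) and 510 in NAV (1243 CPM), a log2 ratio of 1.16 (0.83 to 1.50), against 0.52 in the B gate. Its counts are uncertain where reads could also match the near-identical Csf2rb, which had 194 and 529 UMIs and a ratio of 0.09. H2-T23, the gene of the nonclassical class I molecule Qa-1, a ligand of the inhibitory receptor NKG2A, had 48 and 278 UMIs (300 and 678 CPM), a ratio of 1.18 (0.73 to 1.65), against 0.09 in the B gate. Idi1, an enzyme of sterol synthesis, had 9 and 82 UMIs and a ratio of 1.83 (0.84 to 3.01), and Atp2b4, a calcium pump of the plasma membrane, had 14 and 120 and a ratio of 1.74 (0.94 to 2.66). Ratios of these 4 genes at marker sums of 5 or more were 1.06, 1.07, 1.40 and 1.86. Selplg, the gene of the selectin ligand PSGL-1, was outside these 10 and below 2-fold, with 120 and 538 UMIs and a ratio of 0.81 (0.52 to 1.11). Below the minimum of 50 UMIs, Lag3, an inhibitory receptor, was counted 3 times in MOCK and 32 times in NAV, a ratio of 2.06 (0.38 to 4.41). Cmklr1, the chemerin receptor, was counted 4 and 43 times, a ratio of 2.07 (0.61 to 4.01).

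The 10 genes highest in MOCK were Ppp1ca, Crip1, Fau, Hcls1, Rgs1, Id2, Eef2, Cd82, Rgs2 and Vps37b. Among them Fau, which encodes a ribosomal protein fused to a ubiquitin-like peptide, had 100 and 39 UMIs and a log2 ratio of -2.72 (-3.29 to -2.17), and in the B gate its ratio was -2.34. Ppp1ca, a catalytic subunit of protein phosphatase, had -3.11 in pDCs and -2.28 in the B gate, and the elongation factor Eef2 -1.52 and -1.36. Of the 10, Ppp1ca, Crip1, Fau, Hcls1, Eef2 and Cd82 were 2-fold or more lower in the B gate as well. Id2, Rgs1, Rgs2 and Vps37b were not, with B gate ratios of -0.01, -0.36, -0.28 and -0.70. Ly6d, a surface protein of lymphoid progenitors and some pDCs, was lower in NAV too, with 116 and 162 UMIs and a ratio of -0.88 (-1.23 to -0.52), against -0.62 in the B gate.

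**Figure D4:**
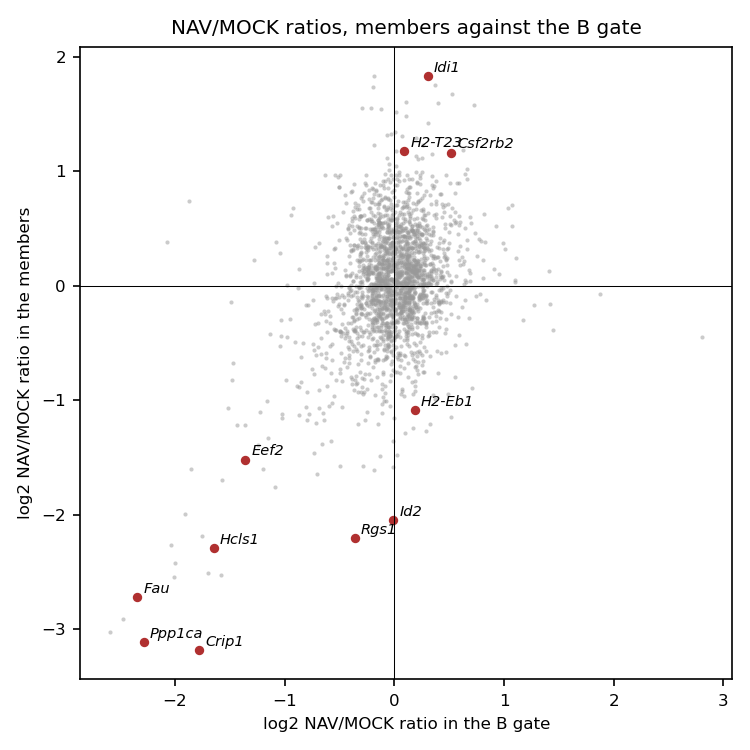
Log2 NAV/MOCK ratio of CPM in pDCs (vertical axis) against the same ratio in B gate barcodes (horizontal axis) for the 2243 genes measured in both (grey points), with 11 genes named in red. Fau, Ppp1ca, Crip1, Hcls1 and Eef2 lie at the lower left in both cell types, while Id2 and Rgs1 are low in pDCs at B gate ratios of -0.01 and -0.36.

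MHC class II genes changed direction with the barcodes at the edge of the rule. Over all pDCs, 7 genes of class II presentation were measured, with a median log2 NAV/MOCK ratio of -0.59, and with marker sums of 5 or more the median over 6 was 0.66. H2-Eb1, a beta chain of class II, had 316 UMIs in MOCK (1973 CPM) and 381 in NAV (929 CPM), a ratio of -1.09 (-1.31 to -0.87), which became 0.66 (0.28 to 1.06) at sums of 5 or more. H2-Ab1 went from -0.92 (-1.10 to -0.75) to 0.80 (0.49 to 1.12), and Cd74 from -0.40 (-0.58 to -0.22) to 0.66 (0.39 to 0.94). The median pDC had 6 class II UMIs in MOCK and 13 in NAV. Against other kept barcodes, class II stood a little higher in MOCK and lower in NAV, at 0.51 and -1.14 for H2-Eb1. At marker sums of 5 or more it stood lower in both, at -1.33 and -1.22 for H2-Eb1 and at -0.74 and -0.69 for Cd74. For H2-Ab1 these values were -1.34 and -1.11, and for H2-Aa -0.56 and -0.61, so set against other barcodes the libraries lay close together. The 4 class II transcripts had 2134 CPM in MOCK and 8395 in NAV at marker sums of 5 to 9. At sums of 10 to 19 they had 2016 and 4245 CPM, and at 20 or more 5834 and 6232 CPM.

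The class II alpha and beta chain genes H2-Aa (GRCm38, chr17:34282744-34287823, minus strand) and H2-Eb1 (chr17:34305867-34316674, plus strand) lie side by side in the mouse MHC and moved together in this way. Their promoters carry the conserved Y box, whose CCAAT letters bind the factor NF-Y. The 240 bases that end 10 bases before the RefSeq start, chr17:34287834-34288073 (minus strand) and chr17:34305617-34305856 (plus strand), are shown with CCAAT or its reverse complement ATTGG in capitals.
H2-Aa: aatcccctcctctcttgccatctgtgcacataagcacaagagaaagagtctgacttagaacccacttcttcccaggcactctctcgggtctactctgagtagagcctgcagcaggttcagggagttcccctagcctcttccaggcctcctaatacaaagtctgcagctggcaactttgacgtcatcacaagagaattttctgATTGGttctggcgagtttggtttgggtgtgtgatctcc
H2-Eb1: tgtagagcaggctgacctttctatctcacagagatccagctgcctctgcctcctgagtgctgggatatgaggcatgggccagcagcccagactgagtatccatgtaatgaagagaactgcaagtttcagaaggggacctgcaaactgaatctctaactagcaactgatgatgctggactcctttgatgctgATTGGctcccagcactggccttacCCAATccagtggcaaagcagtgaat
The letters were in 7 of 9 matched genes of the class II list and in 36.7% of all genes in the table, as a description of the sequence only.

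Genes that cDCs share followed class II. Cst3 had a log2 ratio of -0.95 (-1.14 to -0.76) over all pDCs and 0.25 (-0.05 to 0.56) at marker sums of 5 or more. The second value leans on 1 NAV barcode with a marker sum of 5 and no Tcf4 UMI. It held 94 of the 426 Cst3 UMIs and 241 of the 2252 class II UMIs of NAV at sums of 5 or more. The highest MOCK barcode there held 18 of 115 Cst3 UMIs. Id2 had 50 UMIs in 12 MOCK pDCs and 31 in 18 NAV pDCs, a ratio of -2.05 (-2.74 to -1.37), and -0.59 (-1.56 to 0.44) at sums of 5 or more. Rgs2, a brake on G protein signals, went from -1.57 to -0.29 (-1.06 to 0.53). Il1b went from -0.80 to 1.78 (0.67 to 3.14). In MOCK 5 barcodes held 90.0% of its 70 UMIs, and in NAV 5 barcodes held 59.2% of 103, with up to 18 in 1 barcode. Over 14 measured genes of transitional and myeloid dendritic cells the median was -0.61, with 2 of them, Crip1 and Lyz2, 2-fold or more lower in NAV, beside 2.99% of all genes. At sums of 5 or more the median over 12 was -0.0074 and none passed 2-fold, with Lyz2, the lysozyme gene, at 0.43 and Crip1 below the minimum of UMIs.

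**Figure D5:**
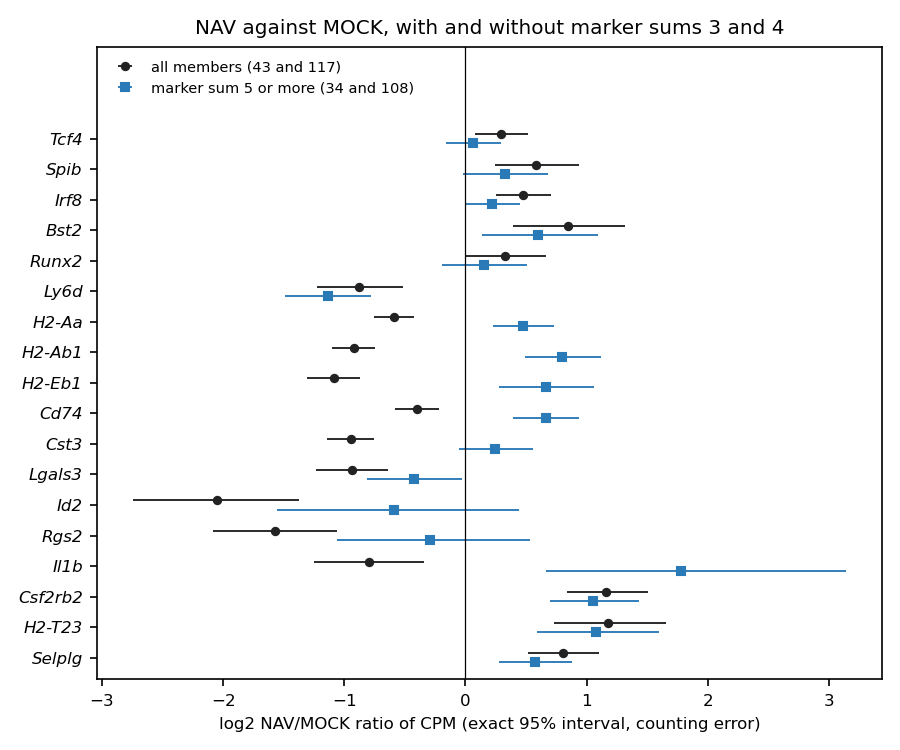
Log2 NAV/MOCK ratio of CPM (horizontal axis, exact 95% intervals for counting error) for 18 genes in all pDCs (black circles, 43 and 117 barcodes) and in those with a marker sum of 5 or more (blue squares, 34 and 108). H2-Eb1 lies at -1.09 in the first set and 0.66 in the second, while Csf2rb2 lies at 1.16 and 1.06.

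Identity genes went both ways between the libraries. The median log2 NAV/MOCK ratio was 0.31 over 20 marker genes outside the rule and 0.05 at marker sums of 5 or more. Of the 20, 10 had intervals above 0 and 2 below. Cd300c, an activating receptor, passed 2-fold higher at 1.04 (0.71 at sums of 5 or more), and Pltp, a phospholipid transfer protein, passed 2-fold lower at -1.23 (-1.51). Tcf4 had ratios of 0.30 (0.08 to 0.52) and 0.06 (-0.16 to 0.30), Irf8 0.47 (0.25 to 0.70) and 0.22 (-0.01 to 0.45), and Spib 0.58 (0.24 to 0.94) and 0.32 (-0.02 to 0.68). Bst2 had 0.84 and 0.60 (0.14 to 1.09), Bcl11a 0.87 and 0.49 (-0.13 to 1.15), and Ly6d -0.88 and -1.14 (-1.49 to -0.78). Over 13 measured factors of the lineage, none was 2-fold or more higher and 2 were lower, the inhibitors Id2 and Id3, beside 1.93% and 2.99% of all genes measured. Id3 had 28 and 31 UMIs and a ratio of -1.21, and -1.31 at marker sums of 5 or more, where it was the 1 factor of 12 still past 2-fold. Irf7, under the minimum of 50 UMIs, had 14 and 14 UMIs and a ratio of -1.36 (-2.54 to -0.18).

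Genes of the ARF GTPases, among them Arf6, whose protein NAV2729 keeps from activation, and of the COPI coat stood level. Of 31 genes of the ARF GTPases and the COPI coat, which shapes vesicles at the Golgi, 17 were measured, with a median log2 ratio of 0.01. None passed 2-fold in either direction and no interval lay off 0. Arf6 had 72 and 208 UMIs and a ratio of 0.17 (-0.22 to 0.58), Arf1 had 96 and 212 and a ratio of -0.21 (-0.57 to 0.15), and Copa, a coat subunit, 27 and 97 and a ratio of 0.49 (-0.14 to 1.16). Transcript levels do not measure the activity of the proteins. Of 26 measured genes for chaperones and the secretory pathway, the median was 0.20 in pDCs and 0.46 in the B gate, with none past 2-fold in pDCs. At marker sums of 5 or more the pDC median was 0.03. Xbp1, the factor that expands the secretory apparatus, had a ratio of 0.24 (-0.12 to 0.61), against 1.11 in the B gate.

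MHC class I, maturation, stress and housekeeping lists are given by their medians and by the genes past 2-fold, beside 1.93% higher and 2.99% lower over all genes. Of 13 measured genes of MHC class I and its loading, the median log2 NAV/MOCK ratio was 0.34 in pDCs and 0.39 in the B gate, and only H2-T23 passed 2-fold. The 3 measured genes of maturation and T cell contact had a median of -0.52, and 0.16 over 2 genes at marker sums of 5 or more. Cd86, a costimulatory ligand of T cells, was the 1 past 2-fold, lower in NAV at -1.61 with 31 and 26 UMIs, and was at -0.85 and below the minimum of UMIs at sums of 5 or more. Of 12 genes induced by tissue dissociation, the immediate early gene Fosb and the growth brake Btg2 were 2-fold or more lower in NAV, at -1.13 and -1.21, and the median was -0.03. At sums of 5 or more the median was 0.13, with Fosb at -0.59 and Btg2 at -1.20, the 1 still past 2-fold. None passed 2-fold among 11 measured homing genes (median 0.15), 12 cytochrome oxidase subunits (0.0041), 4 cell cycle genes (0.15) and 2 cytokine genes (-0.21). At sums of 5 or more the cytokine median was 0.94, with Il1b past 2-fold.

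Markers of other cells were counted in the pDCs as follows, in MOCK and NAV. Conventional dendritic markers had 1343 and 897 CPM, and monocyte markers 3853 and 3927 CPM. Most of the monocyte total was Ly6c2, with 420 of 617 UMIs in MOCK and 1281 of 1611 in NAV. B cell markers had 955 and 1270 CPM, most of it Ighm, and T and NK cell markers 393 and 353 CPM, mostly Cd4 and Cd8a. Neutrophil markers had 225 and 105 CPM, macrophage markers 244 and 241, endothelial and stromal markers 406 and 558, and hepatocyte and cholangiocyte markers 119 and 60.9. Erythroid, platelet and mast cell markers had 1 and 0 UMIs. Within the conventional dendritic list, which was higher in MOCK as class II was, the 4 measured genes had a median ratio of -0.31. The lowest was Wdfy4, a cDC1 gene of cross-presentation, at -1.49 (-0.25 at marker sums of 5 or more).

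Chemokine transcripts were carried by a fraction of pDCs. Ccl4, which attracts lymphocytes and monocytes, was present in 24 of 43 and 60 of 117 pDCs, with 111 and 370 UMIs and up to 22 and 64 in 1 barcode. The 5 highest barcodes held 62.2% of the MOCK and 39.2% of the NAV UMIs. Its log2 NAV/MOCK ratio was 0.38 (0.07 to 0.70) over all pDCs and 0.10 (-0.22 to 0.42) at marker sums of 5 or more. Ccl4 also stood above other kept barcodes, by log2 ratios of 0.76 in MOCK and 1.49 in NAV.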

How the data were processed

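The deposited files are matrices of raw UMI counts, genes by barcodes, for MOCK and for NAV. The mm10 build and the tools Cell Ranger, fastp and STARsolo 2.7.10a are listed per the submitters' processing notes, with no role or order. The tables held 31253 genes, no barcode had under 500 UMIs, and no column belonged to another sample. A barcode was kept at 500 UMIs or more and 200 genes or more if mitochondrial transcripts were below 20%. UMIs were summed over the pDC barcodes of a library and divided by their total (CPM). Log2 NAV/MOCK ratios carry exact 95% intervals conditional on the sum of both counts, shares carry Clopper-Pearson intervals, and a library at 0 was set to a floor of 3 counts. Genes measured had at least 50 UMIs over both libraries, and 2-fold was the threshold. Intervals were tested on simulated Poisson counts, drawn for each gene apart, which is the model that the intervals assume. The simulation left out that few barcodes can hold most UMIs of a gene, so it does not cover such genes. Doublets were scored with Scrublet in scanpy 1.11.5 and left in.

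Genes named were the 10 highest in each library by the interval bound nearest to 0, the 20 outside the rule highest against other barcodes in both libraries, and members of 26 gene lists. Mitochondrial, ribosomal, predicted, hemoglobin, antigen receptor and sex-linked symbols were left out of the rankings. The pDC rule, gates and lists were chosen with earlier results of these data known. Alternatives were a stricter quality filter, other marker sums, no exclusion limits, a doublet limit, thinning, other denominators, other gene minimums, equal weight per cell, median-of-ratios scaling and ratios minus those of B gate or other barcodes. After seeing the data, members with a Tcf4 UMI, members without the highest barcode of each library, and marker sums of 5 or more minus the B gate ratio were added. Some genes of the lists are not reported here. Promoter windows are RefSeq's on GRCm38.p6, and gene positions are GENCODE vM21's on GRCm38, the assembly also called mm10.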

Additional observations from a re-analysis of the deposited data

How the results depend on the processing

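No paired analysis was possible because each group has 1 library, and for the same reason no replicate could be left out. The log2 NAV/MOCK ratio of the pDC share lay between 1.41 and 1.91 under the rule's alternatives, and was 0.72 within the 4 dendritic gates. With a minimum of 20 UMIs 285 genes were 2-fold or more higher in NAV and 263 lower, and with 100 UMIs 8 and 28. Against other barcodes 600 were higher and 177 lower with 20 UMIs, and 190 and 36 with 100. These minimums change how many genes are tested. Minus the B gate ratio 73 were higher, and at marker sums of 5 or more minus the B gate ratio 32 were lower. The class II median was -0.20 with equal weight per cell, -0.27 in members with a Tcf4 UMI, -1.11 minus the ratio of other barcodes, 0.66 at marker sums of 5 or more and 0.45 there minus the B gate ratio. H2-Eb1 turned to 0.66 at sums of 5 or more and to 0.48 there minus the B gate ratio. Minus the ratio of other barcodes, medians were -0.80 for the 4 rule genes, -0.34 for homing genes and -1.22 for conventional dendritic markers. At sums of 5 or more minus the B gate ratio, medians were -0.18 for marker genes outside the rule, -0.10 for MHC class I and -0.43 for secretory genes. The median of transitional and myeloid dendritic genes was -0.0074 at sums of 5 or more. The causes were not tested. Of 203 values of the main comparisons under alternatives, 180 moved little. The doublet limit removed no pDC. NAV/MOCK gene counts and list medians under it therefore repeat the main values, and they are among the 180.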

Other observations

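Some transcripts below the minimum of 50 UMIs were carried by small groups of NAV pDCs. Ebf1, a factor of early B cells, had no UMI in MOCK and 25 in 7 NAV barcodes, 12 of them in 1 barcode. The floor of 3 counts over the MOCK pDCs puts the NAV level at a log2 ratio of at least 1.70. Kdr, the gene of the VEGF receptor VEGFR2, had 1 UMI in MOCK and 33 in 12 NAV barcodes, with up to 7 in 1 barcode, a log2 ratio of 3.69 (1.11 to 9.03). Itgae, the CD103 integrin chain of cDC1 and tissue T cells, was the other way round, with 26 UMIs in 8 MOCK pDCs and 6 in 3 NAV pDCs. Its ratio was -3.47 (-5.04 to -2.16), and -1.86 (-3.71 to -0.07) at marker sums of 5 or more. The counts of barcodes are too small to describe subsets.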
